A study of Mus musculus with 6 samples.

Results

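The proteasome is the main protease of the cytosol and nucleus, and the genes described here encode its parts and close partners. They were taken by a name rule, as every row of the gene table whose symbol starts with Psm, goes on with 1 of the letters a to g and ends in a number or a number with a short suffix, with pseudogenes left out. The rule gave 51 of 33696 genes: 8 alpha and 7 beta subunits of the core particle, 3 interferon-inducible (immune) catalytic subunits, the thymus subunit Psmb11, 6 ATPases and 11 non-ATPase subunits of the regulatory particle, 5 activator genes, the inhibitor Psmf1, 7 assembly chaperones and 2 genes that match the name but encode no subunit, Psmc3ip and Psme3ip1. Nuclei were isolated from frozen left ventricle of male mice aged 12 weeks and sequenced by droplet-based single-nucleus RNA-seq in 6 libraries. The 3 groups held 2 libraries each: wild-type littermates on control diet (WT-CD), mice of the genotype Myh6+/R404Q, named R403Q by the study, on control diet (R403Q-CD), a model of hypertrophic cardiomyopathy, and R403Q mice on a diet with empagliflozin (R403Q-EMPA). Empagliflozin, an inhibitor of the renal sodium-glucose cotransporter, was mixed into the diet at 0.15 mg per g, about 15 mg/kg, from 9 to 10 weeks of age. Both R403Q groups carry 1 mutant and 1 normal allele of Myh6, the main myosin heavy chain gene of the adult mouse heart, and the treated mice had the control diet with the drug mixed in. The labels do not say how many hearts went into a library, so that p-values measure the spread between libraries.

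Proteins marked with ubiquitin are bound and unfolded by the regulatory particle, whose ATPases thread them into the barrel of the core particle. The core is built of stacked rings of alpha and beta subunits, and 3 of the beta subunits, encoded by Psmb5, Psmb6 and Psmb7, carry the catalytic sites. Interferon replaces them with Psmb8, Psmb9 and Psmb10 to form the immunoproteasome, which favours peptides suited to presentation on major histocompatibility complex class I. In heart muscle the ubiquitin-proteasome system takes part in the turnover of sarcomere proteins, and several of its ligases are linked to atrophy.

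The libraries held 31787308 to 45397128 unique molecular identifiers (UMIs, counted transcript molecules). After limits of 500 UMIs, 300 genes and 5% mitochondrial UMIs and the removal of predicted doublets, 45745 of 69249 barcodes were kept, 6403 to 9504 a library, with median depths of 2662 to 4065.5 UMIs. They fell into 24 clusters. Markers put 23 of these into 11 classes, which are called by the cell type whose markers they expressed, and 10 classes had enough nuclei in every library to be tested. The cardiomyocyte-like class had 721 to 1610 nuclei a library, and all 9 of its markers were detected in every library. Pairs of libraries shared 9 to 31 barcodes of kept nuclei. Levels are given as CPM, the UMIs of a gene for each 1000000 UMIs of that class in that library, with the pair of libraries of each group in the order replicate 1 and replicate 2. They are compared between classes or groups for the same gene, and different genes are set side by side only as the UMI ratio of a catalytic pair, which is read across classes and groups. Levels by class are a description, since the classes were built from the same nuclei, although the 51 genes were kept out of the genes used for clustering.

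The start regions of genes whose levels set classes or groups apart are shown first, because the catalytic subunits come in pairs that differ in where they were found, and Psme4 stood alone in cardiomyocyte-like nuclei. Each sequence runs from 250 bases before to 50 bases after the RefSeq start site, 5′ to 3′ on the gene's strand, in build GRCm38.p6. The capitals mark a match, on either strand, to TGACNNNGC, the core of the antioxidant response element. The core of the interferon regulatory factor element, a pair of GAAA boxes with any 2 bases between them, was searched as well and is in none of these 5.
Psmb5, chymotrypsin-like constitutive subunit, chr14:54617946-54618245, minus strand: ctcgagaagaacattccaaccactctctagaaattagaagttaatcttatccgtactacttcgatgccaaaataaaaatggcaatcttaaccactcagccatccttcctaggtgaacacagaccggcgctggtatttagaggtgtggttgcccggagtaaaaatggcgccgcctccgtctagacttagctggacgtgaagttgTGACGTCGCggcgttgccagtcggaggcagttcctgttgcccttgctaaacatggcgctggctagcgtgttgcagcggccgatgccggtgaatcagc
Psmb8, its immune counterpart, chr17:34197945-34198244, plus strand: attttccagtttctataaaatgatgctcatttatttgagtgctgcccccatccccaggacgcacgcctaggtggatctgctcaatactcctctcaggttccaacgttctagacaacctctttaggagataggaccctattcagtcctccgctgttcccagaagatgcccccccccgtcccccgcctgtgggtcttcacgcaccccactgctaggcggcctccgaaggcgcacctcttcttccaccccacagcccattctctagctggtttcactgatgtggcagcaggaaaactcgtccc
Psmb6, caspase-like constitutive subunit, chr11:70525107-70525406, plus strand: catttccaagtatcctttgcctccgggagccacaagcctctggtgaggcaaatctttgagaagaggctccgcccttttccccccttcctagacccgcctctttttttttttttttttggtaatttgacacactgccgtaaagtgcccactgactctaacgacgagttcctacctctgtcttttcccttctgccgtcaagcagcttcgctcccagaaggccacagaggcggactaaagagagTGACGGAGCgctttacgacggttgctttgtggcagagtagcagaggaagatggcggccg
Psmb9, its immune counterpart, chr17:34187281-34187580, minus strand: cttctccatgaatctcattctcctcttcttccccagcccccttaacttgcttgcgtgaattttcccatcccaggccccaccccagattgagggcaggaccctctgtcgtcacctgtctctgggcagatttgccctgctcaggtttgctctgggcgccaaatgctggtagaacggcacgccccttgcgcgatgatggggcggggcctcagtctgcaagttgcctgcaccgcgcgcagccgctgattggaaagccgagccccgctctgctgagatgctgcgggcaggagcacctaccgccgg
Psme4, activator, chr11:30771525-30771824, plus strand: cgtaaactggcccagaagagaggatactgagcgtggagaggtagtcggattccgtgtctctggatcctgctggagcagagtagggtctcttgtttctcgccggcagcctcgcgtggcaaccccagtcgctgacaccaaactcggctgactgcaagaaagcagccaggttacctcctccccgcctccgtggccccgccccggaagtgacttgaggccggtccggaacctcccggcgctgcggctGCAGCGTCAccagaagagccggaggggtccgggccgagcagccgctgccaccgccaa
The first motif is thus present in the windows of Psmb5, Psmb6 and Psme4 and absent from those of Psmb8 and Psmb9. Over the 43 of 51 genes with a window it occurred in 6 (14.0%), namely Psmb5, Psmb6, Psmc6, Psmd9, Psmd12 and Psme4, against 14.0% of 27025 genes. The second motif occurred in 5 of the 43 (11.6%), Psmb3, Psmd4, Psmd9, Psme1 and Psmg4, against 3.99% of all genes. The catalytic pair not shown, Psmb7 and Psmb10, did not differ in this way. Neither motif is in the window of Psmb10, and Psmb7 is not among the genes with either. A match describes the letters in this window and no binding was measured.

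Core and regulatory subunits were found at similar levels in all classes. Over the 31 of these genes other than Psma8, and the 7 classes with the most nuclei, the highest class mean was 1.25 to 2.59 times the lowest, with a median of 1.56, and 25 of the 31 stayed under 2. Summed over the 15 core genes, the mean over 6 libraries was 517 ± 60.2 CPM (SD) in cardiomyocyte-like nuclei, 583 ± 56.7 in fibroblast-like, 611 ± 73.8 in endothelial-like and 540 ± 41.7 in pericyte-like nuclei. The 17 regulatory genes summed to 813 ± 93.9, 893 ± 81.0, 855 ± 82.4 and 822 ± 90.7 CPM in the same order. These ranges overlap between classes. Within this even pattern cardiomyocyte-like nuclei had the lowest mean of the 7 classes for 17 of the 31 genes and the highest for 6. The widest ratio was that of Psmb4, a structural beta subunit, with a mean of 8.55 CPM in cardiomyocyte-like and 22.1 CPM in endocardial-like nuclei. Psmb2, another structural beta subunit, went the other way: it ranged from 90.6 to 107 CPM over the 6 cardiomyocyte-like sums and from 60.0 to 76.7 CPM over the endothelial-like ones, so that the classes do not overlap. The catalytic subunit Psmb7 was level, at 47.1 CPM in cardiomyocyte-like, 51.0 in endothelial-like and 40.3 in fibroblast-like nuclei on average. The catalytic subunits Psmb5 and Psmb6 were not: their lowest class means were those of cardiomyocyte-like nuclei, at 9.87 and 8.90 CPM. Their highest were 21.3 CPM in endocardial-like (Psmb5) and 20.7 CPM in endothelial-like nuclei (Psmb6).

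**Figure D1:**
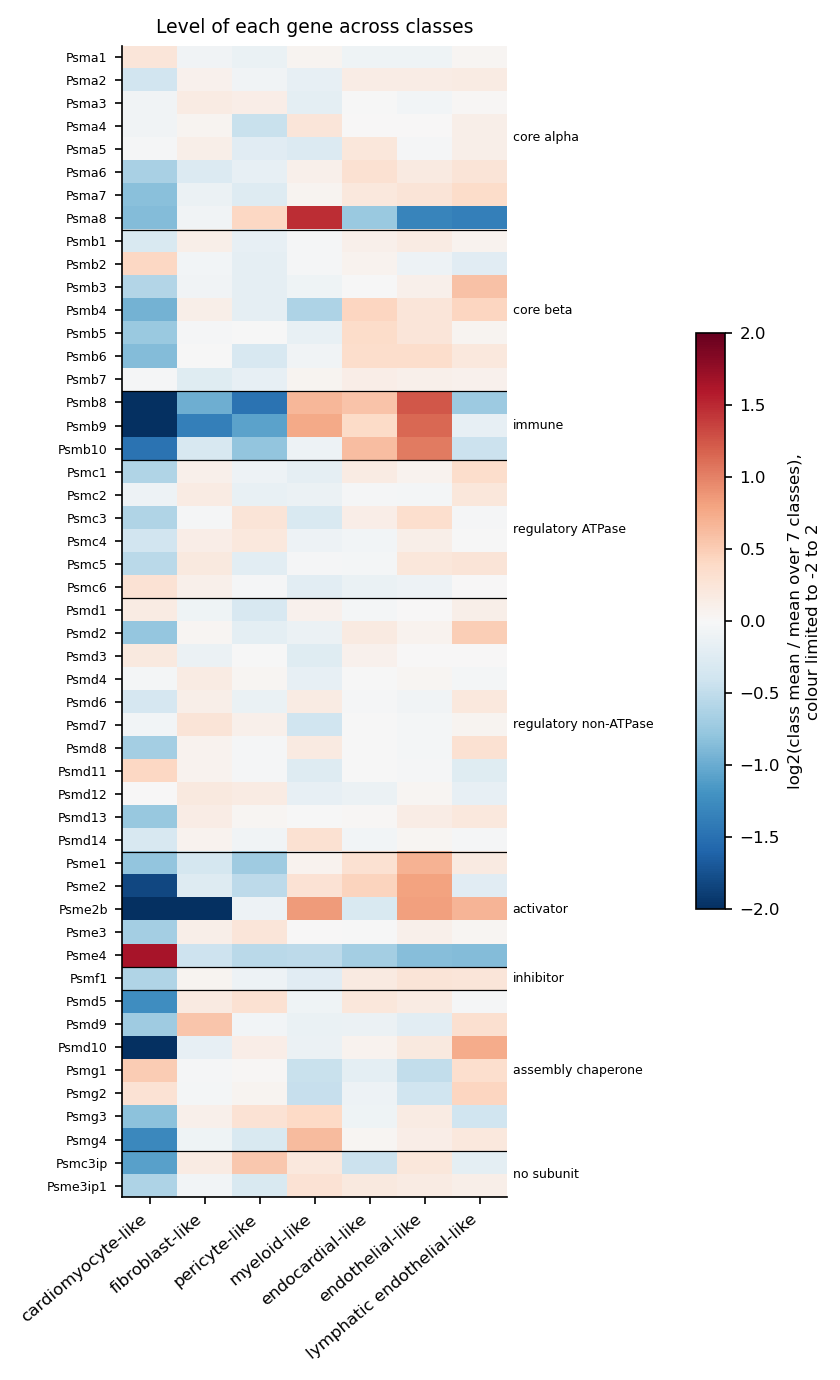
Each row is 1 of 50 genes (Psmb11 is left out), each column 1 of the 7 classes with the most nuclei, and the colour is the log2 ratio of the mean CPM over 6 libraries to the gene's mean over the classes, limited to -2 and 2. Most core and regulatory rows are pale, whereas Psme4 is dark red and the immune subunits are dark blue in cardiomyocyte-like nuclei, and Psma8 is dark red in myeloid-like nuclei.

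Set against whole classes, 26 of the 51 genes had all 6 cardiomyocyte-like values below all 6 endothelial-like values, where 40.7% of all genes did, and 3 had them above (Psmb2, Psme4 and Psmg1, background 21.5%). Against fibroblast-like nuclei 19 of 50 were below (background 46%) and 3 above (Psmd1, Psmb2 and Psme4, background 17.6%). The genes are thus below endothelial-like nuclei in somewhat more than the background share and below fibroblast-like nuclei in less, and no test was made.

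Psme4 set cardiomyocyte-like nuclei apart. It encodes PA200, an ATP-independent activator that caps the core particle and is known from the degradation of acetylated histones. In cardiomyocyte-like nuclei Psme4 was at 1202 and 1339 CPM (WT-CD), 1377 and 1265 (R403Q-CD) and 1003 and 867 (R403Q-EMPA). The smooth muscle-like class came next, at 414 to 671 CPM over 440 UMIs, and the other 8 classes had means of 205 (lymphatic endothelial-like) to 282 CPM (fibroblast-like). The ranges of the cardiomyocyte-like and smooth muscle-like classes overlap with none of those below them in this order except that 1 lymphoid-like library, R403Q-EMPA replicate 2, reached 461 CPM. Neighbours among the other 8 classes all overlap. Free RNA from cardiomyocytes was measured by Ttn, the gene of a giant sarcomere protein, which was at 0.86 to 5.2% of its cardiomyocyte-like level in every class and library but those of the lymphoid-like and smooth muscle-like classes, where it reached 25.6% and 20.2%, both in R403Q-EMPA replicate 2. In that library RNA at the cardiomyocyte ratio would carry up to 222 and 176 CPM of Psme4.

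**Figure D2:**
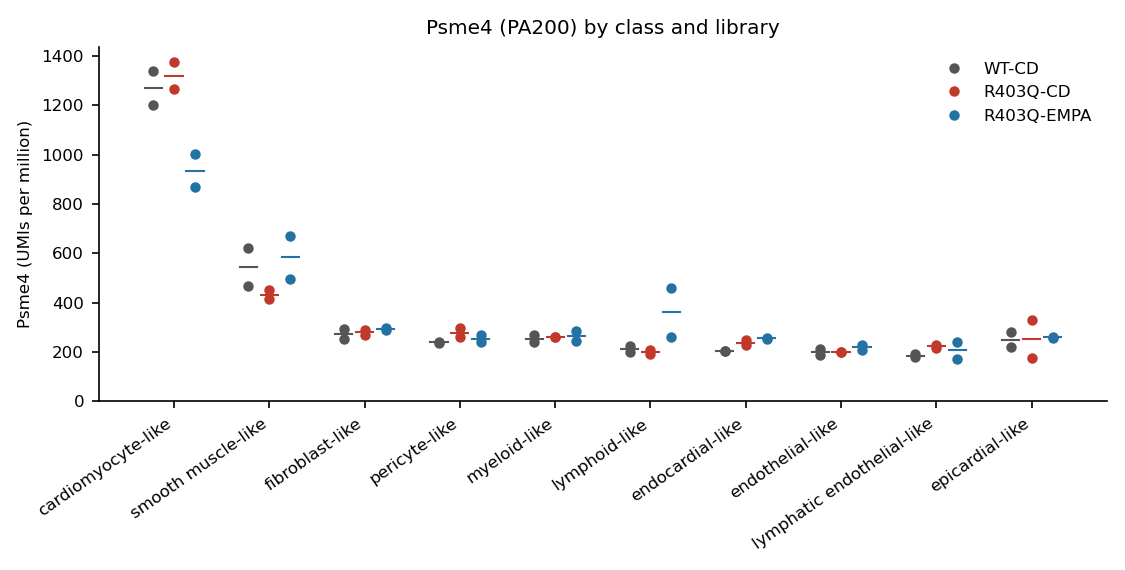
Psme4 in CPM (linear axis from 0) in 10 classes; each point is 1 library, each line the mean of the 2 libraries of a group. Cardiomyocyte-like nuclei reach 867 to 1377 CPM and the 2 R403Q-EMPA points are the lowest of the 6.

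The immune catalytic subunits had the reverse pattern, and under the 5% mitochondrial limit Psmb8 and Psmb9 were nearly absent from cardiomyocyte-like nuclei. Psmb8, the counterpart of Psmb5, had a mean of 36.4 CPM in lymphoid-like nuclei (40 UMIs), 23.3 in endothelial-like, 15.6 in myeloid-like, 14.7 in endocardial-like, 5.01 in fibroblast-like and 0.858 in cardiomyocyte-like nuclei (57 UMIs). Psmb9, the counterpart of Psmb6, had means of 43.1, 25.5, 19.4, 15.0, 4.44 and 0.371 CPM in the same order, the last from 24 UMIs in all 6 libraries. Psmb10, the counterpart of Psmb7, was highest in endothelial-like nuclei at 20.4 CPM and lowest in cardiomyocyte-like nuclei at 3.59 CPM. In the orders of Psmb8 and Psmb9 neighbours overlap in range from the lymphoid-like down to the endocardial-like class. The fibroblast-like values, at 3.05 to 7.63 CPM for Psmb8 and 2.99 to 6.28 CPM for Psmb9, lie below all endocardial-like values, and the cardiomyocyte-like values, at 0.303 to 1.48 and 0.115 to 0.588 CPM, lie below all of these.

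The levels in cardiomyocyte-like nuclei were set against background from free endothelial RNA. The summed endothelial markers there were 0.732 to 1.36% of their endothelial-like level, and Psmb9, at 0.417 to 2.38% of its own, was near that share. Psmb8 was at 1.52 to 6.79% and Psmb10 at 15.9 to 21.3%, both above what those markers gave in every library. The markers measure endothelial RNA only, while 864 of 1620 UMIs of Psmb8 and 738 of 1763 of Psmb10 lay in endothelial-like nuclei. Free RNA of the other classes was not measured for these genes, and the lowest Psmb8 value rests on 3 UMIs.

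Ratios within a pair were set side by side across classes. For each UMI of Psmb5 there were 4.44 of Psmb8 in lymphoid-like, 1.21 in endothelial-like, 1.03 in myeloid-like, 0.688 in endocardial-like, 0.324 in fibroblast-like and 0.0865 in cardiomyocyte-like nuclei, from sums over the 6 libraries. For Psmb9 to Psmb6 the ratios were 2.38, 1.29, 1.35, 0.741, 0.284 and 0.0405. The third pair was flatter, with 0.385 UMIs of Psmb10 for each of Psmb7 in endothelial-like, 0.191 in fibroblast-like and 0.0761 in cardiomyocyte-like nuclei. The lymphoid-like ratios rest on 9 UMIs of Psmb5 and 21 of Psmb6.

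**Figure D3:**
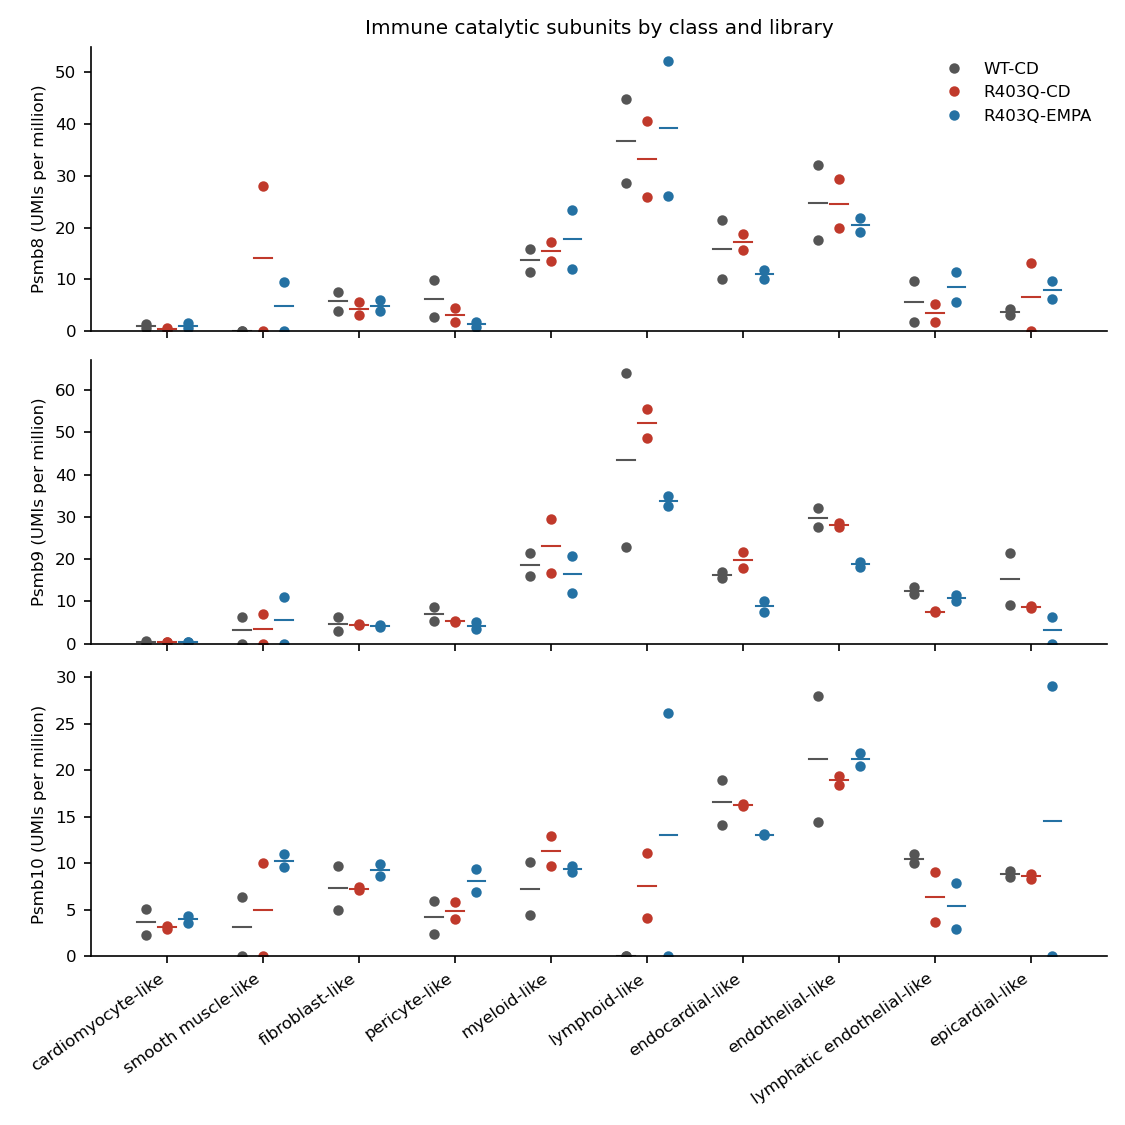
Psmb8, Psmb9 and Psmb10 in CPM (linear axes from 0, a panel each) in 10 classes, with 1 point a library and the mean of each group as a line. Means over all 6 libraries are lowest in cardiomyocyte-like nuclei for all 3 genes (0.858, 0.371 and 3.59 CPM), single libraries of the smallest classes reach 0, and the 2 R403Q-EMPA points of Psmb9 lie below the other 4 in endothelial-like and endocardial-like nuclei.

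The other activators were also lower in cardiomyocyte-like than in endothelial-like nuclei. Psme1 and Psme2 encode the interferon-inducible activator PA28 alpha and beta. Psme1 was at 36.95 to 61.001 CPM in endothelial-like and 12.7 to 23.2 CPM in cardiomyocyte-like nuclei. Psme2 was at 24.3 to 33.5 CPM and 4.09 to 6.00 CPM. Neither gene overlaps between these classes. Psme2b, a near-identical copy of Psme2 whose reads may be split between the pair, was at 5.55 to 10.1 CPM in endothelial-like nuclei and on 7 UMIs in all cardiomyocyte-like nuclei, so that its level is uncertain. Psme3, the nuclear activator PA28 gamma, was at 6.20 to 11.4 CPM in cardiomyocyte-like and 12.1 to 19.2 CPM in endothelial-like nuclei, with its highest mean among the 7 largest classes in pericyte-like nuclei (16.4 CPM). Psmf1, the inhibitor PI31, was at 15.2 to 19.7 CPM and 29.7 to 36.8 CPM, again without overlap.

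Among the assembly chaperones, Psmd5, Psmd9 and Psmd10 help to build the base of the regulatory particle and Psmg1 to Psmg4 guide the alpha ring. Psmd10, known also as gankyrin, was lowest in cardiomyocyte-like nuclei, at 1.47 CPM against 7.81 CPM in endothelial-like nuclei, and Psmd5 was at 12.5 against 32.9 CPM. Psmg1 was at 8.70 to 12.8 CPM in cardiomyocyte-like and 4.66 to 6.75 CPM in endothelial-like nuclei, without overlap. Psma8, an alpha subunit known from the testis, was highest in myeloid-like nuclei, at 9.04 to 33.6 CPM on 140 UMIs, against 2.47 to 4.75 CPM in cardiomyocyte-like nuclei. Psmb11, which belongs to the thymus, stayed under 1 CPM in cardiomyocyte-like, fibroblast-like and endothelial-like nuclei of every library.

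Group comparisons asked whether the mutation, and empagliflozin on top of it, moved these genes within a class. No member was called (adjusted p under 0.05 by edgeR's quasi-likelihood test with Benjamini-Hochberg adjustment over all genes of the class) in any of the 10 classes or over all nuclei, in any of the 3 comparisons. In cardiomyocyte-like nuclei 48 of the 51 genes had counts enough to be tested. For R403Q-CD against WT-CD 0 of 48 were called where 0.0975% of all tested genes were, for R403Q-EMPA against R403Q-CD 0 of 48 against 0.265%, and for R403Q-EMPA against WT-CD 0 of 48 against 4.18%. At an unadjusted p under 0.05 the counts were 2, 4 and 10 of 48, or 4.17%, 8.33% and 20.8%, with backgrounds of 6.85%, 13.1% and 19.5%. These shares are near the backgrounds or below them. The 95% interval of the difference lay within 1 log2 unit of 0 for 42, 39 and 40 of the 48. DESeq2 called none in cardiomyocyte-like nuclei either. In the smaller classes the backgrounds of the 3 comparisons, in the same order, were 0%, 0.557% and 1.43% in pericyte-like, 0.00913%, 0.0822% and 0.393% in myeloid-like, 0%, 0.0664% and 0.0885% in lymphatic endothelial-like, 0.0211%, 0.0845% and 0.254% in epicardial-like, 0%, 0.0673% and 0.247% in lymphoid-like and 0%, 0.0559% and 0.0279% in smooth muscle-like nuclei. Over all nuclei they were 0%, 0.0683% and 4.67%, and in endocardial-like nuclei 0%, 0.625% and 2.05%. The comparisons share libraries and are not independent.

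In cardiomyocyte-like nuclei of R403Q-CD against WT-CD the genes were split, with 26 of 48 above 0 on the log2 scale (background 47.5%) and a median of 0.02. Beta subunits of the core had a median of 0.32 and 6 of 7 above 0, regulatory non-ATPases one of 0.00 and 6 of 11 above 0. Psmb1, a structural beta subunit, had the smallest p, at 41.4 and 31.9 CPM in WT-CD against 46.3 and 46.2 in R403Q-CD, a log2 difference of 0.34 (SE 0.14, adjusted p 0.684). Next came Psmg1, an alpha-ring chaperone, at 8.70 and 8.96 against 11.6 and 12.8 CPM (0.46, SE 0.20, adjusted p 0.710). Both sets of values are apart, with no overlap, but did not pass the test. Psmd13, a non-ATPase subunit of the lid, was at 23.6 and 19.3 against 18.8 and 15.8 CPM (-0.31, SE 0.17, adjusted p 0.824, and -0.46 to -0.17 over the fits without 1 library). The groups did not overlap in 8 genes that were higher (background 16.6%) and 6 that were lower (17.2%).

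R403Q-EMPA against R403Q-CD gave more differences above 0 in cardiomyocyte-like nuclei, 39 of 48 with a median of 0.15, where 51% of all genes were above 0 and their median was 0.01. All 11 regulatory non-ATPases and 5 of 6 ATPases were among the 39. Summed markers of other cell types were lowest in the cardiomyocyte-like nuclei of R403Q-EMPA, at 4584.5 and 4661.4 CPM against 5021 to 5635 in the other 4 libraries, and their part was not tested. The groups did not overlap in 26 genes that were higher (background 27.5%, or 54.2% of the 48) and 5 that were lower (25.7%). The lean was not seen when nuclei were kept without the limit on mitochondrial UMIs and clustered again: 23 of 49 were then above 0, with a median of -0.020 where that of all genes was 0.00070. Psmd6, a non-ATPase subunit, was at 20.5 and 16.8 CPM untreated and 28.6 and 25.2 under empagliflozin (0.46, SE 0.18, adjusted p 0.312). Psme3 was at 6.27 and 8.36 against 11.4 and 10.7 CPM (0.53, SE 0.22, adjusted p 0.352). In both genes every treated value lies above every untreated R403Q value. Psma8 had the smallest p, at 4.75 and 4.18 against 2.47 and 2.49 CPM (-0.91, SE 0.32, adjusted p 0.258).

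Against WT-CD the R403Q-EMPA nuclei of this class had 35 of 48 differences above 0 (background 50.1%), a median of 0.11, and a median of 0.45 for the beta core subunits. Psmd6 was at 20.8 and 14.7 CPM in WT-CD (0.54, SE 0.18, adjusted p 0.139). Psmb4 was at 8.46 and 4.71 CPM in WT-CD and 12.1 and 9.70 in R403Q-EMPA (0.67, SE 0.26, adjusted p 0.189, and 0.40 to 1.04 over the fits without 1 library). The groups did not overlap in 23 genes that were higher (background 24.1%) and 5 that were lower (23.4%). Without WT-CD replicate 1 the test called 4 genes of this comparison (background 6.26%): Psma7 (0.97, adjusted p 0.0139), Psmb5 (1.63, 0.0159) and Psmd7 (0.57, 0.0471) were higher and Psme4 (-0.69, 0.0348) was lower in R403Q-EMPA. Without that library it also called Psmb3 (0.81, 0.0439) and Psmb6 (1.16, 0.0197) in endothelial-like (background 3.99%), Psmd7 (0.73, 0.0402) in pericyte-like (3.32%) and Psmb6 (1.09, 0.0368) over all nuclei (3.31%), all higher in R403Q-EMPA. With 1 WT-CD library left, each of these calls assumes that it varies like the libraries of the other groups.

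**Figure D4:**
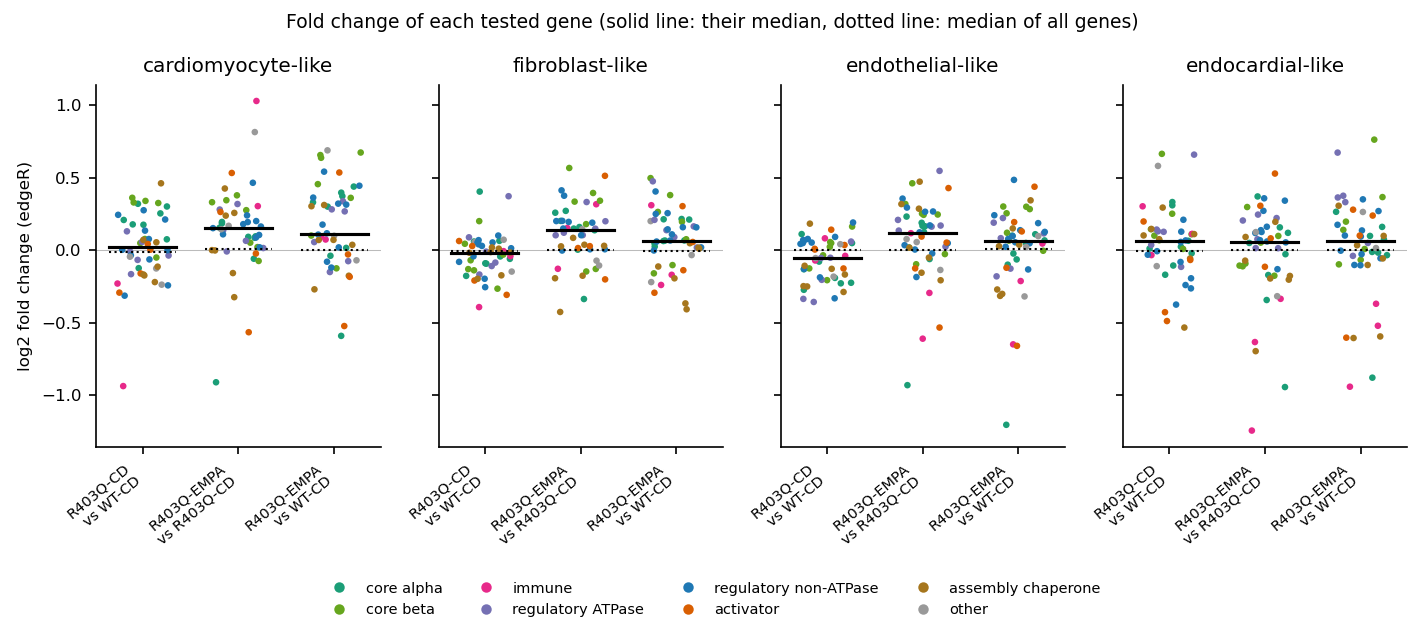
Log2 fold change by edgeR of each tested gene in 4 classes and 3 comparisons; a point is a gene, coloured by its role, solid lines are the medians of these genes and dotted lines those of all genes tested. In cardiomyocyte-like, fibroblast-like and endothelial-like nuclei the points of R403Q-EMPA against R403Q-CD lie mostly above 0, with medians of 0.15, 0.14 and 0.12.

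Other classes, from nuclei of the same 6 libraries, differed in this lean. In fibroblast-like nuclei, where 49 genes were tested, 0 were called in R403Q-EMPA against R403Q-CD (background 0.334%) and 38 were above 0 (background 50.1%), with a median of 0.14, and the groups did not overlap in 22 that were higher (background 26.1%) and 5 that were lower (26.1%). In endothelial-like nuclei 0 of 50 were called (background 0.263%) and 36 of 50 were above 0 (50.6%), with a median of 0.12, and the groups did not overlap in 24 that were higher (23.4%) and 7 that were lower (24.1%). Fewer were above 0 in pericyte-like (31 of 49, background 50.9%), myeloid-like (31 of 48, 51.1%) and endocardial-like nuclei (29 of 48, 50.1%), with medians of 0.079, 0.079 and 0.057. Lymphatic endothelial-like nuclei had 17 of 41 above 0 (background 49.4%) and a median of -0.048, epicardial-like nuclei 5 of 13 (48.9%) and a median of -0.040. In the smallest classes it was 10 of 13 (lymphoid-like, background 50.5%) and 5 of 9 (smooth muscle-like, 48.9%). No test of a difference between classes was made for these shares. For R403Q-CD against WT-CD, 20 of 49 and 22 of 50 were above 0 (backgrounds 48.3% and 50.7%), and no gene at all was called in either class (0%). For R403Q-EMPA against WT-CD it was 36 of 49 and 34 of 50 (49.1% and 51.2%), with 0 called where 1.22% and 0.684% of all genes were. Psme3 had the smallest p in fibroblast-like nuclei, at 11.8 and 13.0 CPM untreated and 19.4 and 16.8 under empagliflozin (0.51, SE 0.18, adjusted p 0.274). In endothelial-like nuclei it was at 12.1 and 14.1 against 19.2 and 16.7 CPM (0.43, SE 0.19, adjusted p 0.519). The treated values of this activator were thus the 2 highest of 6 in each of these classes and in cardiomyocyte-like nuclei, and it did not pass the test in any. Psmc4, an ATPase, was at 22.3 and 19.1 against 29.4 and 33.3 CPM in endothelial-like nuclei (0.55, SE 0.20, adjusted p 0.413). Against WT-CD the ATPase Psmc5 had the smallest p in fibroblast-like nuclei, at 19.3 and 14.0 CPM (WT-CD), 22.4 and 20.6 (R403Q-CD) and 23.9 and 23.6 (R403Q-EMPA) (0.47, SE 0.17, adjusted p 0.266). In endocardial-like nuclei it was at 13.3 and 11.4, 21.9 and 18.1, and 20.2 and 20.2 CPM (0.66, SE 0.27, adjusted p 1 for R403Q-CD against WT-CD). All 4 R403Q values of Psmc5 lie above both WT-CD values in these classes. Psmc1, another ATPase, led R403Q-CD against WT-CD in endothelial-like nuclei, at 50.6 and 40.6 against 33.7 and 35.9 CPM (-0.34, SE 0.14, adjusted p 1).

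The spread between the WT-CD libraries limits all comparisons with that group. Of the 45 genes compared in cardiomyocyte-like nuclei, 38 were higher in WT-CD replicate 1 than in replicate 2, with a median log2 ratio of 0.44, where all genes had 0.18. In fibroblast-like nuclei it was 44 of 49 with a median of 0.38 (all genes 0.11), and in endothelial-like nuclei 44 of 50 with a median of 0.38 (0.13). The R403Q-CD libraries had 21 of 45, 19 of 49 and 22 of 50 higher in replicate 1. Summed core subunits of cardiomyocyte-like nuclei were at 533 and 406 CPM (WT-CD), 501 and 529 (R403Q-CD) and 570 and 565 (R403Q-EMPA). Regulatory subunits were at 869 and 670, 762 and 776, and 924 and 877 CPM. Both R403Q-EMPA values lie above the other 4 in each sum, and the WT-CD pair spans both R403Q-CD values. Without WT-CD replicate 2, only 19 of 49 genes were above 0 in fibroblast-like nuclei and 21 of 50 in endothelial-like nuclei for R403Q-EMPA against WT-CD, from 36 and 34, so that the direction there rests on this library. For R403Q-CD against WT-CD, the 20 of 49 and 22 of 50 became 36 and 30 without WT-CD replicate 1 and 10 and 11 without WT-CD replicate 2, and in cardiomyocyte-like nuclei the 26 of 48 became 32 and 19.

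Psme4 gave the lower values under empagliflozin in cardiomyocyte-like nuclei. From the values above, its log2 difference was 0.04 (SE 0.20, adjusted p 0.993) for R403Q-CD against WT-CD, -0.56 (SE 0.20, 95% interval -1.02 to -0.11, adjusted p 0.273) for R403Q-EMPA against R403Q-CD and -0.52 (SE 0.20, adjusted p 0.195) against WT-CD. The difference against WT-CD ranged from -0.69 to -0.33 over the fits without 1 library. Both treated libraries were below all 4 others. In fibroblast-like and endothelial-like nuclei the difference against R403Q-CD was 0.03 and 0.09. A test of the difference between classes gave -0.67 for cardiomyocyte-like minus endothelial-like nuclei (adjusted p 0.0820) and -0.62 for cardiomyocyte-like minus fibroblast-like nuclei (adjusted p 0.104), and against WT-CD -0.64 (0.0553) and -0.59 (0.0732). None was called, in tests that called 0.809%, 0.679%, 2.73% and 2.11% of all genes. Over all nuclei Psme4 was at 494 to 595 CPM, a sum that moves with the share of cardiomyocyte-like nuclei.

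The make-up of the cardiomyocyte-like class moved with the groups. Its largest cluster held 90.9 and 86.0% of the class (WT-CD), 76.0 and 56.7% (R403Q-CD) and 26.2 and 53.2% (R403Q-EMPA). Another cluster, with Ryr3 and Myot among its leading genes, held 5.34 and 5.27%, 11.9 and 20.6%, and 49.4 and 34.8%. Within the largest cluster Psme4 was at 1207 and 1346, 1390 and 1312, and 1057 and 878 CPM, a log2 ratio of means of -0.48 against R403Q-CD. Within the other it was at 1183 and 1247, 1308 and 1150, and 997 and 867 CPM, a ratio of -0.40. The remaining cluster, led by Ttn and Nppa, held 3.74 and 8.74%, 12.1 and 22.7%, and 24.4 and 12.0% of the class, with Psme4 at 977 and 1329, 1351 and 1259, and 874 and 781 CPM. Both treated values were the lowest of the 6 in each of the 3 clusters, with no test.

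Psmb9 was lower under empagliflozin in endothelial-like and endocardial-like nuclei, without passing the test. In endothelial-like nuclei it was at 32.1 and 27.5 CPM (WT-CD), 27.5 and 28.5 (R403Q-CD) and 19.4 and 18.0 (R403Q-EMPA). The difference was -0.61 (SE 0.15, adjusted p 0.205) against R403Q-CD and -0.65 (SE 0.15, adjusted p 0.120) against WT-CD, with unadjusted p of 0.00305 and 0.00222. In endocardial-like nuclei it was at 16.9 and 15.5, 18.0 and 21.8, and 7.54 and 10.1 CPM. The difference there was -1.24 (SE 0.30, adjusted p 0.0998) against R403Q-CD and -0.94 (SE 0.31, adjusted p 0.165) against WT-CD, where 0 of 48 tested genes were called against 0.625% and 2.05% of all genes. The summed endocardial markers of that class were also lower in R403Q-EMPA, at 8118 and 9961 CPM against 12456 and 10842 in R403Q-CD and 11470 and 11796 in WT-CD, and their part in the result was not tested. Both treated values of Psmb9 lie below the other 4 in either class, and the values were lower than R403Q-CD in every fit that left out 1 library, by log2 0.58 to 0.65 in endothelial-like and 1.02 to 1.45 in endocardial-like nuclei. In lymphatic endothelial-like nuclei, where Psmb9 had too few counts to be tested (41 UMIs), it was at 13.4 and 11.7, 7.43 and 7.73, and 10.1 and 11.5 CPM, higher in the treated libraries than in R403Q-CD. Over all nuclei the difference of Psmb9 was -0.65 (SE 0.21, adjusted p 0.230) against R403Q-CD, and -0.95 to -0.42 over the fits without 1 library. This sum moves with the shares of the classes. Without the limit on mitochondrial UMIs both endocardial-like differences were called, at -1.57 (adjusted p 0.0386, background 0.778%) and -1.29 (adjusted p 0.0466, background 2.51%). Without the filter on low counts the first was called too, at -1.24 (adjusted p 0.0146, background 2.31%).

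The other immune subunits and their partners were mixed. Psmb8 in endothelial-like nuclei was at 32.1 and 17.5 CPM (WT-CD), 19.95 and 29.3 (R403Q-CD) and 21.8 and 19.1 (R403Q-EMPA), with overlapping groups. In endocardial-like nuclei it was at 21.5 and 10.04, 18.8 and 15.7, and 11.9 and 10.1 CPM, a difference of -0.63 (SE 0.37, adjusted p 0.592) against R403Q-CD that ranged from -0.78 to -0.53 over the fits without 1 library. Psmb10 in endothelial-like nuclei was at 27.97 and 14.4, 19.4 and 18.4, and 20.5 and 21.9 CPM. Of genes that act beside the immunoproteasome, Tap1, a peptide transporter, was at 18.6 and 23.3, 24.2 and 28.5, and 15.5 and 11.1 CPM in the same class, and B2m, the light chain of class I molecules, at 237 and 153, 206 and 355, and 154 and 144 CPM. The treated values of Tap1 were below the other 4. Its difference was -0.97 (adjusted p 0.168) against R403Q-CD and that of B2m -0.95 (adjusted p 0.238), so that neither was called. Both were picked after their values were seen from a list of 12 interferon and peptide loading genes, of which 0 were called there and whose median was -0.12. Myeloid markers in endothelial-like nuclei summed to 91.6 to 136 CPM and lymphoid markers to 2471.1 to 3251.3 CPM, with 1 to 4 of the 9 lymphoid markers at 0, and their part in the level of Psmb9 was not tested. The ratio of Psmb9 to Psmb6 was 1.06 and 2.79 (WT-CD), 1.44 and 1.51 (R403Q-CD) and 0.829 and 0.788 (R403Q-EMPA) in endothelial-like nuclei. It was 0.825 and 1.89, 0.742 and 1.02, and 0.373 and 0.340 in endocardial-like nuclei. That of Psmb8 to Psmb5 was 1.30 and 1.31, 1.22 and 1.60, and 0.957 and 0.887 in endothelial-like nuclei, where Psmb5 itself was at 24.6 and 13.4 CPM (WT-CD), 16.4 and 18.3 (R403Q-CD) and 22.8 and 21.5 (R403Q-EMPA). In each of these 3 cases both treated libraries are below the other 4. The third pair, Psmb10 to Psmb7, was at 0.555 and 0.304, 0.363 and 0.348, and 0.404 and 0.426 in endothelial-like nuclei, with both treated ratios above those of R403Q-CD and inside the WT-CD pair. In endocardial-like nuclei it was at 0.370 and 0.326, 0.288 and 0.286, and 0.234 and 0.259, and Psmb8 to Psmb5 at 0.933 and 0.688, 0.828 and 0.886, and 0.517 and 0.378, with both treated ratios the lowest of the 6 in each. The treated ratios of Psmb9 to Psmb6 were also the lowest in fibroblast-like (0.169 and 0.253) and myeloid-like nuclei (0.833 and 0.471). They were not in pericyte-like, lymphatic endothelial-like or cardiomyocyte-like nuclei. Such a ratio moves with the constitutive subunit as well as with the immune one, and their parts were not told apart.

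In smaller classes the leading differences were of other genes. In myeloid-like nuclei Psma8 was at 22.2 and 33.6 CPM (WT-CD), 15.5 and 14.4 (R403Q-CD) and 11.7 and 9.04 (R403Q-EMPA). The difference of R403Q-EMPA against WT-CD was -1.41 (SE 0.38, adjusted p 0.194), and it was called without the filter on low counts, at -1.40 (adjusted p 0.0391, background 1.39%). Psmb6 in the same nuclei was at 14.6 and 4.43, 10.3 and 13.7, and 24.9 and 25.6 CPM (1.27 against WT-CD, SE 0.45, adjusted p 0.358). Without WT-CD replicate 1 that difference was 2.39 and without WT-CD replicate 2 it was 0.76. The treated libraries are thus the lowest in Psma8 and the highest in Psmb6 among the 6. In pericyte-like nuclei Psmd2, a non-ATPase subunit of the base, had a difference of 0.76 (SE 0.26, adjusted p 0.221) against WT-CD, and Psmd10 one of 1.29 (SE 0.51, adjusted p 0.434) against R403Q-CD. In lymphatic endothelial-like nuclei the chaperone Psmg2 had one of -1.25 (SE 0.37, adjusted p 0.358) against WT-CD. In lymphoid-like nuclei Psme4 had one of 0.91 (SE 0.33, adjusted p 0.564) against R403Q-CD, in the class where R403Q-EMPA replicate 2 held the most Ttn. That of Psme4 ranged from 0.36 to 1.30 over the fits without 1 library. Only 9 to 13 of the genes had counts enough in the smooth muscle-like, lymphoid-like and epicardial-like classes. Over all nuclei Psmd11, a non-ATPase subunit, came closest, at 0.45 (SE 0.12, adjusted p 0.0759, background 4.67%) for R403Q-EMPA against WT-CD, and DESeq2 called it, at 0.46 (adjusted p 0.0350, background 8.87%). The mean of Psmd11 was 107 CPM in cardiomyocyte-like and 67.4 CPM in myeloid-like nuclei, so that this sum moves with the shares of the classes.

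Calls for R403Q-CD against WT-CD in cardiomyocyte-like nuclei changed when the limit on mitochondrial UMIs was lifted and the nuclei were clustered and named again. The parts of the limit and of the new clusters were not told apart. The 5% limit removed 22.7 and 18.8% of nuclei (WT-CD), 26.4 and 32.4% (R403Q-CD) and 33.7 and 39.3% (R403Q-EMPA). Without it the class, clustered again, held 1338 and 1403 nuclei (WT-CD), 3094 and 3403 (R403Q-CD) and 4212 and 2869 (R403Q-EMPA). Of its 5 clusters, 3 were shallow: 1 of 4952 nuclei, led by Nppa, Dsp, Mb and Actc1, had a median depth of 0.248 of that of its libraries, and those of 2807 nuclei, led by Acta1 and Pgam2, and 2582 nuclei, led by Rbm20, had 0.475 and 0.511 of it. Then 11 genes were called for R403Q-CD against WT-CD, all higher, where 3.83% of all genes were called: Psma2, Psma7, Psmb1, Psmb3, Psmb4, Psmb5, Psmb6, Psmc3, Psmd2, Psmd8 and Psme1, by log2 0.56 to 1.42. For R403Q-EMPA against WT-CD 9 were called, all higher (background 8.05%), and for R403Q-EMPA against R403Q-CD 0 of 49, where 28 of 15010 genes were. Psmb5 was at 14.3 and 11.8 CPM (WT-CD), 33.2 and 35.4 (R403Q-CD) and 33.3 and 24.0 (R403Q-EMPA), a difference of 1.32 for R403Q-CD against WT-CD (adjusted p 0.00686). Psmb6 was at 11.9 and 11.3, 31.4 and 31.1, and 30.9 and 22.014 CPM. All 4 R403Q values lie above both WT-CD values in these catalytic subunits. Under the limit they were at 11.9 and 3.56, 8.19 and 10.7, and 13.1 and 11.8 CPM for Psmb5, and at 8.82 and 4.94, 7.38 and 10.1, and 10.6 and 11.6 CPM for Psmb6. Mitochondrial UMIs were 1.51 and 2.13% of the class without the limit (WT-CD), 3.8008 and 3.69% (R403Q-CD) and 3.44 and 2.75% (R403Q-EMPA), and their part in these differences was not tested. The summed core subunits went to 556 and 466, 740 and 736, and 750 and 666 CPM. The summed immune subunits were at 8.48 and 5.58, 13.2 and 17.2, and 13.7 and 8.36 CPM without the limit. Under it they were at 6.94 and 3.10, 3.84 and 4.09, and 6.21 and 4.72 CPM. Psme4 kept its lower values in R403Q-EMPA, at 1182 and 1277, 1205 and 1114, and 919 and 831 CPM.

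**Figure D5:**
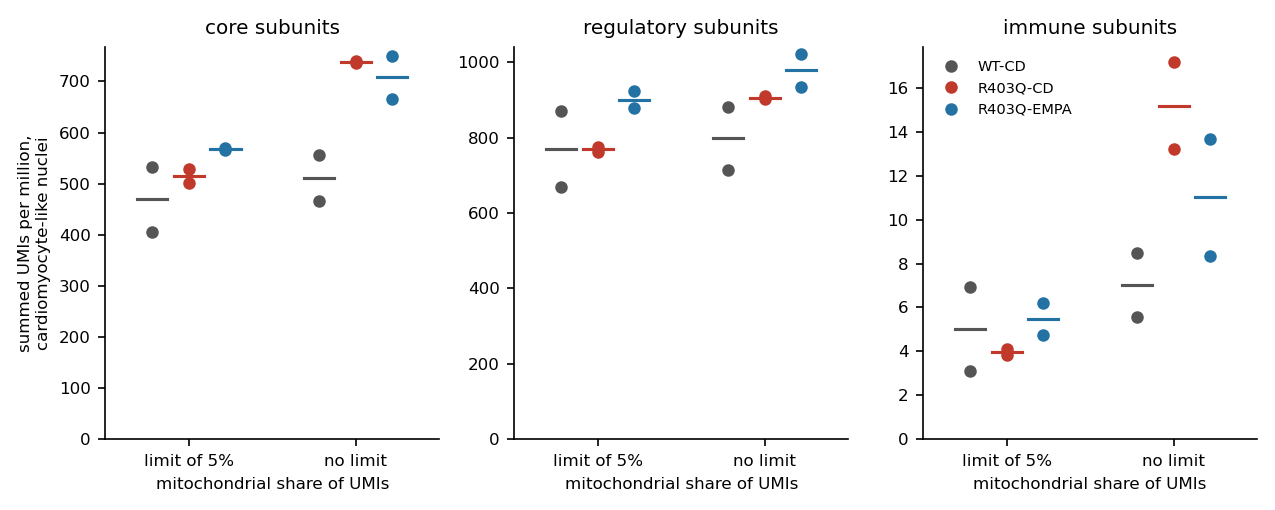
Summed CPM of core, regulatory and immune catalytic subunits in cardiomyocyte-like nuclei (linear axes from 0) with the limit of 5% mitochondrial UMIs and without one; points are libraries and lines group means. Without the limit the core sums of R403Q-CD are at 740 and 736 CPM, above both WT-CD values, and with it they lie within the WT-CD pair. The immune sums of R403Q-CD without the limit are at 13.2 and 17.2 CPM, also above both WT-CD values.

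Of 6 lists of genes from the same pathway, those nearest to the proteasome had no tested gene called. One list held 12 other proteasome genes (ubiquitin receptors, deubiquitylases, the chaperone Pomp and others), of which 6 to 11 were tested in a class. Another held 8 that control proteasome genes, among them Nfe2l1 and Nfe2l2, of which 6 or 7 were tested in a class. None was called in any class or comparison, where the background was at most 4.18%. Nfe2l1, the transcription factor that restores proteasome genes when the enzyme is inhibited, had a difference of 0.06 in cardiomyocyte-like and 0.30 in endothelial-like nuclei for R403Q-EMPA against R403Q-CD. Of 10 muscle ubiquitin ligases, Fbxo32, the atrophy ligase atrogin-1, fell in cardiomyocyte-like nuclei, from 376 and 352 CPM in WT-CD, with 377 and 294 in R403Q-CD, to 195 and 169 in R403Q-EMPA (-1.07 against WT-CD, adjusted p 0.0137). Against R403Q-CD none of the 10 was called in this class. Of 12 interferon and peptide loading genes, Calr, a chaperone of the endoplasmic reticulum, rose in R403Q-EMPA in cardiomyocyte-like nuclei against WT-CD (0.82, adjusted p 0.0366), in fibroblast-like nuclei against R403Q-CD (1.31, 0.0452) and in pericyte-like nuclei against both (1.28 and 1.03). Pdia3, a protein disulphide isomerase of the same compartment, rose in pericyte-like nuclei against R403Q-CD (1.06, 0.0216) and in epicardial-like nuclei against WT-CD (1.78, 0.0188). The other 10 genes of that list were not called. Over all nuclei the ubiquitin shuttle gene Ubqln1 (0.51, adjusted p 0.0485) and the muscle ligase genes Fbxo40 (1.11, 0.00929) and Trim54 (0.96, 0.0175) were higher in R403Q-EMPA than in WT-CD (background 4.67%). The cardiomyocyte-like share of nuclei was higher there too, at 19.6 and 25.1% against 11.8 and 9.47% in WT-CD. Within cardiomyocyte-like nuclei none of the 10 muscle ligases was called higher in this comparison (background 4.18% in either direction) and their median was -0.20.

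Stress genes moved in the same libraries as the differences under empagliflozin. Of the 12 on the list, 6 of 11 tested rose in cardiomyocyte-like nuclei of R403Q-EMPA against WT-CD, where 4.18% of all genes were called: Atf3, Dnajb1, Hspa1a, Hspa1b, Hspb1 and Hsph1. Hsph1, a co-chaperone of the heat shock response, was at 6.11 and 4.82 CPM (WT-CD), 11.9 and 12.5 (R403Q-CD) and 71.1 and 49.9 (R403Q-EMPA) (log2 3.398, adjusted p 0.000292). In endothelial-like nuclei it was at 14.2 and 6.61, 13.3 and 9.36, and 153 and 151 CPM (3.71 against R403Q-CD, adjusted p 0.000622). Egr1, an immediate early gene, fell in endocardial-like nuclei by 1.39 on the log2 scale against R403Q-CD (adjusted p 0.0129). Atf3 was called for R403Q-CD against WT-CD in cardiomyocyte-like nuclei, at 2.57 (adjusted p 0.0127). Over the 6 lists and 10 classes 24 of 533 gene and class pairs were called for R403Q-EMPA against R403Q-CD (background 0.288%), and the part of the stress genes in the proteasome values was not tested.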

How the data were processed

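The study measured nuclear RNA of left ventricle in 6 libraries, 2 in each of 3 groups, with 3′ droplet chemistry. Counts were deposited by the authors as whole-number UMI counts per gene and barcode, made with Cell Ranger 8.0.1 on GRCm39 according to the submitters' processing notes. No cell annotation was used, so classes were rebuilt. Nuclei had at least 500 UMIs, at least 300 genes and at most 5% mitochondrial UMIs. Doublets were called by Scrublet in each library (4.67 to 6.771% in 5 libraries). In R403Q-EMPA replicate 1 it marked none, and the 716 nuclei with the highest scores, the median share of the others (5.696%), were removed, a choice made after seeing the data. Nuclei were clustered with scanpy 1.11.5 (2000 variable genes without the members and lists, 30 components, 15 neighbours, Leiden resolution 1, seed 1) and named where 3 or more markers were detected in 10% of nuclei at a fold of 2.

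UMIs were summed by library and class (at least 20 nuclei in each library) and tested with edgeR 4.0.16 in R 4.3.3 (filterByExpr, TMM, quasi-likelihood test, 1 fit over the 3 groups) with Benjamini-Hochberg adjustment over all genes of the class and a threshold of 0.05. The difference between classes was fitted with the library as a block. The script was tested on simulated data for cardiomyocyte-like, fibroblast-like and endothelial-like nuclei. It recovered 45 to 61% of changes of 1 log2 unit and 82 to 91% of changes of 2. Of its calls 6.34 to 11.0% were false. DESeq2 1.42.0, other scalings and filters, and fits without each library were the alternatives. Genes named were the called members or, with none, those with the 3 smallest p, the catalytic subunits and the activators, and the list genes called. Tap1, B2m and Nfe2l1, which were not called, were named outside this rule after their values were seen. In the smaller classes only the leading of these are printed. Members and lists were chosen with earlier results of these data known. Replicates were numbered in accession order. Nothing in the labels says that a group's libraries came from separate animals, so p-values may measure technical spread. The deposited labels give a diet of longer duration than the age of these mice allows, so that its length is not given here. Promoters are from RefSeq, GRCm38.p6, matched by symbol, and no protein sequences were used here. The result of 1 list gene is not reported here.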

Additional observations from a re-analysis of the deposited data

How the results depend on the processing

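No paired analysis was possible because the labels give no replicate numbers and those used here follow accession order. No proteasome gene was called by the main test in the 10 classes or over all nuclei. Without the mitochondrial limit 11 gene and class pairs were called for R403Q-CD against WT-CD, all in cardiomyocyte-like nuclei (background 3.83%). For R403Q-EMPA against R403Q-CD it was 1, in endocardial-like nuclei (0.778%). Against WT-CD it was 10, of which 9 were in cardiomyocyte-like (8.05%) and 1 in endocardial-like nuclei (2.51%). Without the filter on low counts it was 1 for each comparison of R403Q-EMPA (2.31% and 1.39% in those classes). DESeq2 called 1 over all nuclei for R403Q-EMPA against WT-CD (8.87%). Leaving out each library in turn gave 0 to 0, 0 to 0 and 0 to 7 calls in the classes and 0 to 0, 0 to 0 and 0 to 1 over all nuclei, the 7 and the 1 without WT-CD replicate 1. List genes called were 1, 24 and 36 of 533 gene and class pairs (backgrounds 0.0161%, 0.288% and 1.37%) and 0, 3 and 11 over all nuclei. For R403Q-CD against WT-CD they were 2 with DESeq2, 7 without the low-count filter and 9 without the mitochondrial limit in the classes, and 1 with DESeq2 and 3 without the mitochondrial limit over all nuclei. For R403Q-EMPA against R403Q-CD they were 60 without the low-count filter, and over all nuclei 11 with DESeq2 and 5 without the low-count filter. For R403Q-EMPA against WT-CD they were 66 without that filter. Leaving out each library gave 0 to 4, 6 to 45 and 16 to 58 in the classes and 0 to 0, 1 to 5 and 7 to 11 over all nuclei. The number of all genes called moved between these fits too. For R403Q-CD against WT-CD in cardiomyocyte-like nuclei it went from 14 of 14355 to 575 of 15010 without the mitochondrial limit. The counts of list genes under the alternatives are thus not set against a background here, and the cause of their shifts was not tested.

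The difference of Psme4 between cardiomyocyte-like and endothelial-like nuclei ranged over the libraries left out from -0.048 to 0.093, from -0.83 to -0.50 and from -0.80 to -0.48 in the 3 comparisons, and against fibroblast-like nuclei from -0.086 to 0.15, from -0.73 to -0.50 and from -0.70 to -0.48. For R403Q-CD against WT-CD its sign turned in 4 of these fits, at -0.086 and -0.0030 (fibroblast-like) and -0.048 and -0.033 (endothelial-like). Without R403Q-EMPA replicate 1 the differences from endothelial-like nuclei were called, at -0.83 and -0.80, on the assumption that the single treated library left varies like those of the other groups. For R403Q-CD against WT-CD the sign also turned for Psme4 in cardiomyocyte-like nuclei, to -0.17 without the mitochondrial limit and -0.034 without R403Q-CD replicate 1, with a range of -0.12 to 0.24 over the libraries left out. It turned for Psmb1 (0.026) and Psmd14 (0.069) in lymphoid-like nuclei with doublets kept and for Psmd11 in smooth muscle-like nuclei without the mitochondrial limit (0.098). Over the libraries left out Psmd14 ranged from -0.59 to 0.066, Psmd11 from -0.55 to 0.13, Psmc6 in epicardial-like nuclei from -0.73 to 0.019 and Psmd4 in fibroblast-like nuclei from -0.36 to 0.0012. Of the fold changes of named genes 1297 kept direction and side of the threshold, 10 turned and 9 became called.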

Other observations

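A cluster of 42 nuclei, led by the haemoglobin genes Hbb-bt, Hba-a1, Hba-a2 and Hbb-bs and by Alas2, the first enzyme of haem synthesis in red cells, was given no class and entered no comparison between groups. Over all nuclei of the 6 libraries Psma8 was at 5.62 and 5.48 CPM (WT-CD), 5.76 and 5.43 (R403Q-CD) and 3.04 and 3.67 (R403Q-EMPA). Its difference for R403Q-EMPA against R403Q-CD was -0.70 (SE 0.22, adjusted p 0.220 by edgeR), so that this gene did not pass the test there either. The level over all nuclei moves with the shares of the classes.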
